A study of Oryza sativa with 11 samples.

Results

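Calcium-dependent protein kinases (CPK genes), calmodulins (CAM genes) and calmodulin-like proteins (CML genes) of rice root tips were examined for their transcript levels under salt. The members were chosen by name: each probe set that the array annotation gives to a single gene was kept if the RefSeq symbol or a synonym of that gene began with CPK, CDPK, CAM or CML and a number, with or without the prefix Os. The brightest probe set stands for each gene. Of 53 genes with such a name in the RefSeq table, 46 had a probe set of their own, out of 17905 genes on the array that could be named. They are 20 of 24 CPK genes, 3 of 3 CAM genes and 23 of 26 CML genes. CPK11, CPK14, CPK25, CPK28, CML2, CML21 and CML22 had none and were not analysed here.

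Salt reaches the root both as an osmotic and as an ionic stress, and a rise of cytosolic calcium is among the earliest responses of the root cell. Calmodulin binds calcium with EF hands and then binds and regulates other proteins, and the calmodulin-like proteins are its more diverged relatives, most of them built of EF hands alone. A calcium-dependent protein kinase carries a kinase domain and a calmodulin-like domain in the same polypeptide, so that calcium switches the kinase on directly. These proteins are regulated by calcium itself and by phosphorylation, and an array measures only the level of their transcripts.

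The plants were the salt-tolerant FL478, an F2-derived F8 recombinant inbred line, and the salt-sensitive IR29. RNA came from root tips, the last 2 cm, taken at 30 days after germination. FL478 control, FL478 salt and IR29 salt had 3 arrays each and IR29 control had 2, each labelled a biological replicate. Salt (NaCl with added calcium chloride) was started at 22 days, raised over 3 days to about 60 mM NaCl or 7.4 dS/m, and held for 5 days, against 1.1 dS/m in the control. The labels call the culture hydroponics and the methods of the study describe sand tanks. FL478 descends from a cross of IR29 with a salt-tolerant variety, so the genotype contrast compares 2 lines and no single allele.

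The values are linear signal intensities, and precision is limited by the small number of arrays. Each array had a median of 48.8 to 61.3 units, with 36.6% to 41.9% of its probe sets under 32. Pairs of arrays correlated across probe sets at 0.963 or above within a group and at 0.945 or above between groups, and no array stood apart. The GAPDH control probe sets, whose 3′ to 5′ ratio reflects RNA integrity, had a ratio 0.21 higher under salt on the log2 scale (two-sided exact permutation p = 0.02 over 200 arrangements within genotypes, 0.06 after adjustment over 3 such ratios). The root markers of the endodermis and stele were present, with Lsi1, the silicon influx transporter of rice roots, at 29054 to 33589 units in the group means. Of that list, Lsi2 was lower under salt with arrays apart in both genotypes (log2 difference -0.33 in FL478, -0.70 in IR29). OsCASP1 gave -0.14 and -0.40, and OsSHR1 -0.12 and -0.028. OsSCR1, at 112 to 152 units in the group means, gave 0.077 and 0.35. limma called none of them for salt, and a shift in cell composition was not tested. The summed signal of the 3 shoot markers found was 326 to 730 units in FL478 control, 291 to 388 in FL478 salt, 263 to 317 in IR29 control and 203 to 421 in IR29 salt.

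Most of the members were measured well above the dim end of the array. The mean signal of 42 of the 46 was above the median over all probe sets, 52.8 units. The exceptions were CML32, CPK2, CPK22 and CPK29. A total of 41 members were at or over 32 units on every array, and CPK2 was under 32 on all 11. At such levels the offset shrinks a log2 difference toward 0, so the differences of these members understate the ratios of their signals.

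Log2 differences refer to log2(signal + 32). Each p is from limma's moderated test in a fit of all 11 arrays, and calls were made over 57258 probe sets at a false discovery rate (Benjamini-Hochberg) of 0.10. In bulk tissue, fewer cells that express a gene and less RNA in each cell cannot be told apart.

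limma called 0 of the 46 members for salt in FL478 (0.169% of all probe sets were called), and 0 in IR29 (0.00524% called). It also called 0 for salt averaged over both genotypes (0.547% called), and 0 for the interaction, the salt difference in IR29 minus that in FL478 (0.0% called). At an unadjusted p under 0.05, 2 members were higher and 2 lower with salt in FL478, where 4.17% of all probe sets were higher and 4.8% lower. In IR29 the counts were 0 and 0, against 2.84% and 3.35% of all probe sets. For the average they were 1 and 2, against 4.93% and 5.32%, and for the interaction 0 and 0, against 2.44% and 2.09%. Among the 17905 genes by their brightest probe set, the shares were 6.28% and 5.53% in FL478 and 3.70% and 2.94% in IR29. They were 8.05% and 6.33% for the average, and 2.21% and 1.26% for the interaction.

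The intervals show how large a salt difference these arrays leave room for. In FL478 the 95% confidence interval lay wholly within 1 log2 unit of 0, a 2-fold difference, for 37 of the 46 members (80.4%), against 74.2% of the 17905 genes, each by its brightest probe set, and 69.2% of all probe sets. In IR29 the interval lay within that unit for 36 members (78.3%), against 71.2% of genes and 62.1% of probe sets. For members near or under 32 units the offset narrows the interval, which then does not bound a 2-fold difference of signal. Among the 42 members above the median level, 34 in FL478 (81.0%) and 33 in IR29 (78.6%) lay within it. The shares of all probe sets above that level were 69.7% and 66.2%. The median log2 difference of the members was 0.026 in FL478 and 0.030 in IR29, against 0.033 and 0.028 over the 17905 genes and 0.00043 and 0.0025 over all probe sets. The widest intervals belonged to CML15, CML16, CML31 and CPK21, and for these a 2-fold difference was not detectable.

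**Figure D1:**
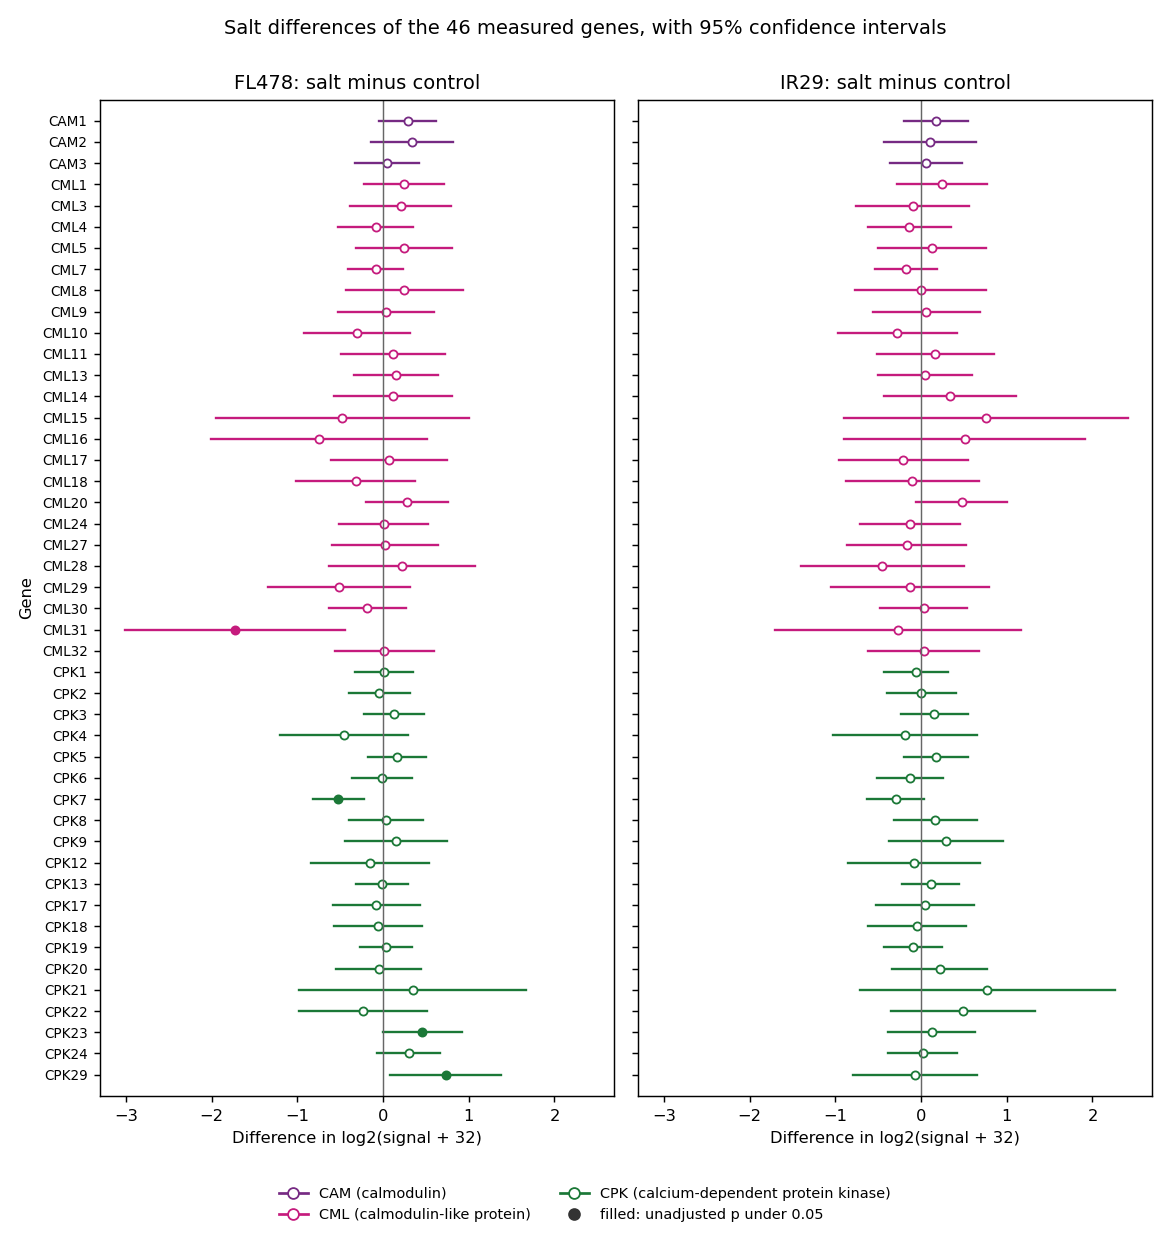
Difference between salt and control in log2(signal + 32) for each of the 46 members, in FL478 (left, 3 against 3 arrays) and IR29 (right, 3 against 2 arrays), with the 95% confidence interval of the limma fit. Filled points have an unadjusted p under 0.05, 4 members in FL478 and 0 in IR29, and no member passed the adjusted threshold.

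The calmodulins proper lay far above the dim end of the arrays, and none was called between salt and control. CAM1 stands for a RefSeq gene on chromosome 1 whose synonyms take in CAM1-1, CAM1-2 and CAM1-3. Which of these copies the probe set reads was not tested. CAM1-1 is known to raise salt tolerance of rice when it is overexpressed, but the values here cannot be credited to that copy. In FL478 the CAM1 probe set read 10122, 11675 and 11383 on the control arrays and 12758, 13628 and 14147 on the salt arrays. The salt arrays all lay above the control arrays. The log2 difference was 0.29 (SE 0.15, 95% interval -0.043 to 0.62, adjusted p = 0.62).

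In IR29, CAM1 read 12735 and 10102 in control and 12603, 13878 and 12098 under salt. Here the groups overlapped, and the log2 difference was 0.18 (SE 0.17, adjusted p = 0.96). CAM2 read 8431, 9984 and 9473 in FL478 control and 9355, 12327 and 13924 under salt, where the highest and lowest salt arrays differed more than the group means. For CAM2 the log2 difference was 0.34 in FL478 (SE 0.21, adjusted p = 0.71), with 0.21 without FL478 salt replicate 3 and 0.50 without FL478 salt replicate 1. In IR29 it was 0.10 (SE 0.24, 95% interval -0.43 to 0.64), and -0.10 without IR29 salt replicate 2, the highest of its group at 11671.

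CAM3 gave log2 differences of 0.049 in FL478 (SE 0.17, 95% interval -0.32 to 0.42) and 0.056 in IR29 (SE 0.19, 95% interval -0.36 to 0.47). Its mean signal was 21871 ± 1848 in FL478 control, 22880.4 ± 4679 in FL478 salt (SD, n = 3 each), 19295 ± 1025 in IR29 control (SD, n = 2) and 20056 ± 865 in IR29 salt (SD, n = 3). The FL478 difference turned to -0.016 with quantile normalization and to -0.11 without FL478 salt replicate 3, so it has no settled sign.

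CPK7 had the smallest p of the members for salt. It was also the only one with salt and control arrays apart, in the same direction, in FL478 and in IR29. Its RefSeq record carries the synonyms CDPK1 and CPK11. In FL478 the signal was 4267, 4052 and 3882 in control and 2904, 2846 and 2713 under salt. In IR29 it was 3794 and 4245 in control and 3297, 3422 and 3072 under salt. All 6 salt arrays lay below all 5 control arrays.

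For CPK7 the log2 difference in FL478 was -0.52 (SE 0.13, 95% interval -0.82 to -0.23, adjusted p = 0.24), which is 0.70 of the control level. For IR29 it was -0.30 (SE 0.15, 95% interval -0.63 to 0.032, adjusted p = 0.84), which is 0.81 of it. Averaged over genotypes it was -0.41 (SE 0.10, 95% interval -0.63 to -0.19, adjusted p = 0.17). The interaction was 0.23 (SE 0.20, adjusted p = 1). These values did not pass the threshold over all probe sets, but the average passed it with an offset of 64 (adjusted p = 0.067), with a floor of 32 (0.018), among probe sets above the median level (0.087) and with an intensity trend and robust variance (0.058). With the GAPDH ratio, which moved with salt, as a covariate the average was -0.49 (adjusted p = 0.64).

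Groups that did not overlap are common with so few arrays. The counts are therefore read against those of all probe sets and of all genes by their brightest probe set. In FL478 the salt and control arrays were apart for 5 members (CAM1, CPK23 and CPK29 higher, CML31 and CPK7 lower), and for 14.0% of all probe sets. In IR29 they were apart for 6 members (CML1, CML20 and CPK13 higher, CML7, CPK6 and CPK7 lower), and for 21.4%. They were apart in the same direction in both genotypes for 1 member, CPK7, and for 3.2% of all probe sets. Among the 17905 genes by their brightest probe set, the arrays were apart for 3464 in FL478 and 4065 in IR29. For 576 of these genes salt was higher in both genotypes with arrays apart, and for 424 lower. The salt difference had the same sign in FL478 and IR29, which share no arrays, for 29 of the 46 members (63.0%), against 11455 of the 17905 genes by their brightest probe set and 56.9% of all probe sets.

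CPK23, known as SPK, a kinase first found in developing rice seeds, read 2768, 2729 and 2588 in FL478 control and 3950, 3029 and 4286 in FL478 salt. The salt arrays were the higher ones, with a log2 difference of 0.46 (SE 0.20, 95% interval 0.0024 to 0.92, adjusted p = 0.55). In IR29 it read 1926 and 2024 in control and 2155, 2780.5 and 1666 under salt, and these groups overlapped (log2 difference 0.12, SE 0.23). With the GAPDH ratio as a covariate the difference in FL478 was 0.14. This difference passed an unadjusted p of 0.05 in the main fit, but not with the replicate number as a block.

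CPK24, known to act in cold tolerance of rice, had a log2 difference of 0.30 in FL478 (SE 0.16, 95% interval -0.066 to 0.66) and 0.017 in IR29 (SE 0.18). CPK29 was too dim for a level in most groups: it read 30, 6.7 and 1.9 in FL478 control, 40, 34 and 46 in FL478 salt, and under 32 on all 5 IR29 arrays. Its log2 difference in FL478 was 0.73 (SE 0.29, adjusted p = 0.49), and with a floor of 32 only the salt arrays of FL478 stay above that floor.

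Several kinases are known to raise salt tolerance of rice when they are overexpressed, among them CPK4, CPK12, CPK13 (the gene first described as OsCDPK7) and CPK21. The first 3 fall outside the rule for named genes and were chosen after their values were seen. CPK13 had log2 differences of -0.013 in FL478 (SE 0.13, 95% interval -0.31 to 0.29) and 0.11 in IR29 (SE 0.15, 95% interval -0.22 to 0.45). CPK12 had -0.16 (95% interval -0.84 to 0.53) and -0.081 (-0.85 to 0.69). CPK4 had -0.45 (-1.20 to 0.29) and -0.19 (-1.02 to 0.65). The interval of CPK13 holds no 2-fold difference in either genotype, whereas that of CPK4 does.

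CPK21 varied most among the kinases, with 62, 7.8 and 52 in FL478 control, 35, 129 and 27 in FL478 salt, 34 and 42 in IR29 control, and 140, 13 and 185 in IR29 salt. It lay under 32 units on 3 arrays. The log2 differences were 0.34 (SE 0.60) and 0.77 (SE 0.67), neither of which could be told from 0 over this spread. In IR29 the difference was 1.32 with a floor of 32 and 1.96 with the GAPDH ratio as a covariate (adjusted p = 0.82).

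**Figure D2:**
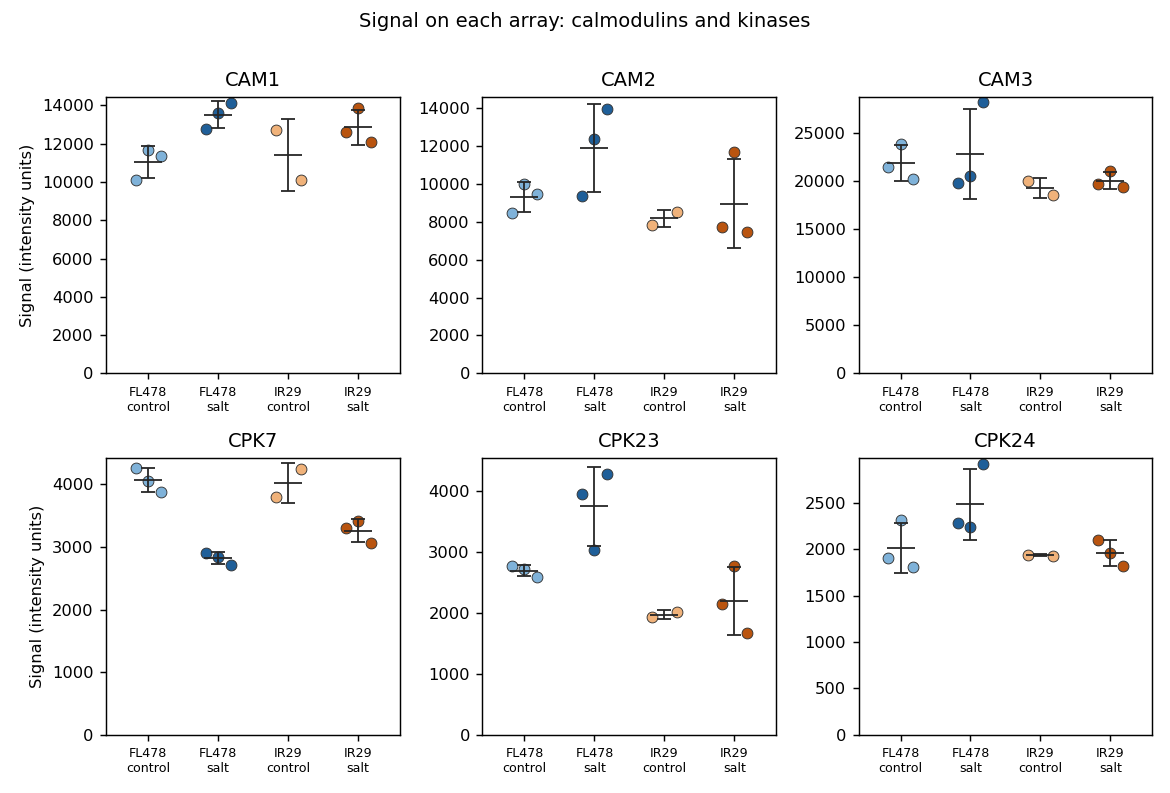
Signal in intensity units on each array (points) for the 3 calmodulins and for CPK7, CPK23 and CPK24 in the 4 groups, with the group mean and SD (bars). The salt arrays of CPK7 lie below the control arrays in both genotypes, and those of CPK23 above them in FL478 only, with overlap in IR29. The interaction was called for neither gene.

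Among the calmodulin-like genes CML31 had the largest salt difference. CML31 is the gene called OsMSR2, which is induced by several stresses in rice and raised salt and drought tolerance when it was expressed in Arabidopsis. In FL478 it read 3529, 1603 and 1748 in control and 1400.3, 429.9 and 395 under salt. The salt arrays were all lower, but the highest of them lay close to the lowest control array. The log2 difference was -1.73 (SE 0.58, 95% interval -3.02 to -0.45, adjusted p = 0.39).

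In IR29, CML31 read 1210 and 398 in control and 401, 461 and 1000.1 under salt, a log2 difference of -0.27 (SE 0.64). The groups overlapped. The interaction was 1.46 (SE 0.86, adjusted p = 1), so the genotypes were not shown to differ in this response. The interaction was 0.69 without IR29 control replicate 2 and 2.22 without IR29 control replicate 1.

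CML15 and CML16 had salt differences of opposite sign in the genotypes, with wide intervals. CML15 gave -0.47 in FL478 (95% interval -1.95 to 1.01) and 0.76 in IR29 (-0.90 to 2.41). CML16 gave -0.75 (-2.01 to 0.51) and 0.51 (-0.90 to 1.91). Their interactions were 1.23 (SE 1.00) and 1.26 (SE 0.85), each with an adjusted p of 1.

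CML20 read 167, 87 and 118 in FL478 control and 143, 143 and 176 under salt, and 137 and 136 in IR29 control and 160, 248 and 208.5 under salt. The groups overlapped in FL478 and were apart in IR29. The average over genotypes was 0.38 (SE 0.16, 95% interval 0.020 to 0.73, adjusted p = 0.46). CML7 gave -0.084 in FL478 (95% interval -0.41 to 0.24) and -0.18 in IR29 (-0.54 to 0.18), and CML10 gave -0.30 (-0.92 to 0.32) and -0.28 (-0.97 to 0.42).

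CML28 and CML29 had log2 differences of 0.22 (SE 0.38) and -0.51 (SE 0.37) in FL478, and of -0.45 (SE 0.43) and -0.13 (SE 0.42) in IR29. CML1, the gene called OsCaM61, which encodes a calmodulin with a long tail that can be prenylated, was chosen after its values were seen. It gave 0.24 in FL478 (SE 0.21) and 0.25 in IR29 (SE 0.24). In the main fit, CML31 in FL478 was the only calmodulin-like gene to pass an unadjusted p of 0.05 for salt within a genotype.

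**Figure D3:**
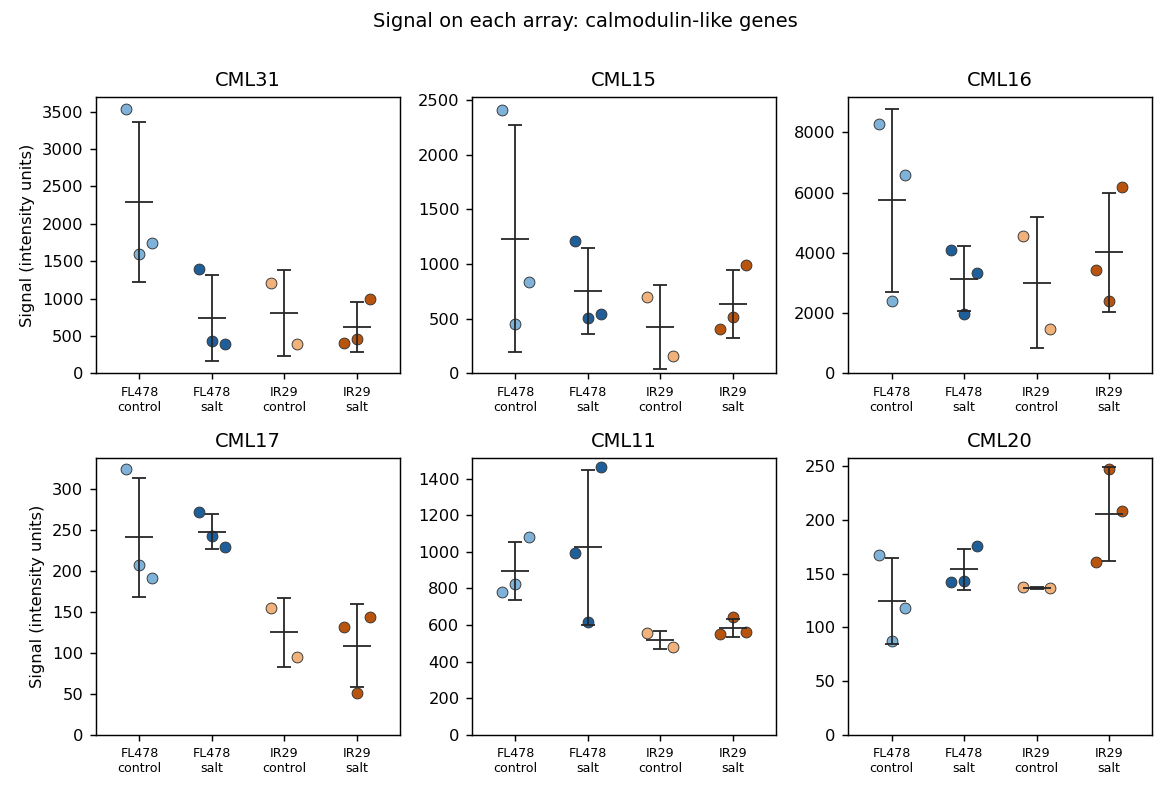
Signal in intensity units on each array (points) for 6 calmodulin-like genes in the 4 groups, with the group mean and SD (bars). CML31 was lower on the salt arrays of FL478, CML15 and CML16 vary widely within each group, and CML17 and CML11 have higher means in FL478 than in IR29.

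The genotypes were compared in control and under salt, in contrasts that share no arrays. limma called 0 members in control (0.597% of all probe sets were called) and 0 under salt (1.75% called). At an unadjusted p under 0.05, 3 members were higher in FL478 and 0 lower in control, against 3.96% and 3.96% of all probe sets. Under salt 4 were higher and 0 lower, against 5.49% and 5.74%. Among the 17905 genes by their brightest probe set the shares were 4.49% and 3.85% in control and 7.38% and 7.34% under salt.

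CML17 was higher in FL478 in both treatments. It read 324, 207 and 191 in FL478 control against 154 and 95 in IR29 control, and 271, 242 and 229 in FL478 salt against 132, 51 and 143 in IR29 salt. All 6 FL478 arrays lay above all 5 IR29 arrays. The log2 difference was 0.79 in control (SE 0.34, adjusted p = 0.60), with 0.52 without IR29 control replicate 2 and 1.07 without IR29 control replicate 1, and 1.06 under salt (SE 0.30, 95% interval 0.39 to 1.74, adjusted p = 0.18).

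CPK23 was also higher on every FL478 array than on the IR29 arrays of the same treatment. The log2 difference was 0.44 in control (SE 0.23, adjusted p = 0.71) and 0.78 under salt (SE 0.20, 95% interval 0.32 to 1.23, adjusted p = 0.14). The latter passed the threshold with an offset of 64 (adjusted p = 0.098), among probe sets above the median level (0.078), with an intensity trend and robust variance (0.055), with the GAPDH ratio as a covariate (0.049) and without IR29 salt replicate 2 (0.063).

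CML11 read 780.3, 825 and 1078 in FL478 control against 554 and 481 in IR29 control, and 995, 616 and 1462 in FL478 salt against 550.4, 642 and 563 in IR29 salt. The groups were apart in control and overlapped under salt. The log2 differences were 0.74 (SE 0.30, adjusted p = 0.57) and 0.70 (SE 0.27, adjusted p = 0.36). Without FL478 salt replicate 2, the lowest of its group, the second of these was 1.01 with an adjusted p of 0.083. Without FL478 salt replicate 3, the highest, it was 0.41 with an adjusted p of 0.68.

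The average of the genotype differences over both treatments was added after the values above were seen. limma then called 2 members, both higher in FL478, against 3.34% of all probe sets. By their brightest probe set, 851 of the 17905 genes were called. The members called were CML17 at 0.93 (SE 0.23, adjusted p = 0.079) and CPK23 at 0.61 (SE 0.15, adjusted p = 0.088). CML11 followed at 0.72 (SE 0.20, adjusted p = 0.13). Counted by an unadjusted p under 0.05, 4 members were higher and 1 lower. The shares were 6.31% and 6.73% of all probe sets, and 8.81% and 8.78% of genes by their brightest probe set.

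Both calls rest close to the threshold. CML17 was not called with the GAPDH ratio as a covariate (adjusted p = 0.20) or a floor of 32 (0.16), and CPK23 was not called with the replicate block (0.14). CML17 was no longer called without any 1 of FL478 control replicates 1 and 2, FL478 salt replicates 1, 2 and 3, IR29 control replicate 2 and IR29 salt replicate 1, at adjusted p = 0.11 to 0.31. CPK23 was no longer called without any 1 of the FL478 control and IR29 control replicates, FL478 salt replicates 1 and 3 and IR29 salt replicates 1 and 3, at adjusted p = 0.14 to 0.24. Without any 1 array the log2 difference stayed at 0.76 to 1.07 for CML17 and at 0.52 to 0.70 for CPK23.

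CML31 differed between the genotypes in control, at 1.58 (SE 0.64, 95% interval 0.14 to 3.01, adjusted p = 0.56), with the 3 FL478 control arrays above both IR29 control arrays. Under salt its difference was 0.12 (SE 0.58). The control difference was 0.81 without IR29 control replicate 2 and 2.34 without IR29 control replicate 1.

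Between the genotypes the log2 difference was below 0, FL478 being the lower, for 14 of 20 CPK genes in control and 15 of 20 under salt, against 53.2% and 52.5% of genes by their brightest probe set. The CPK medians were -0.036 and -0.18, against -0.022 and -0.020 for those genes. It was above 0 for 15 of 23 CML genes in control and 16 of 23 under salt, against 46.8% and 47.5%, with medians of 0.16 and 0.12. Neither class was tested against the other or against other genes.

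Among the kinases with differences below 0, CPK1 and CPK6 had FL478 arrays below the IR29 arrays in both treatments. CPK1 gave -0.27 in control (SE 0.17) and -0.20 under salt (SE 0.15), and CPK6 gave -0.33 (SE 0.17) and -0.21 (SE 0.16). CPK18, a kinase known from the immune response and from mycorrhizal symbiosis of rice, gave -0.36 (SE 0.26) and -0.37 (SE 0.23). CPK5 gave -0.24 (SE 0.17) and -0.25 (SE 0.15), and CPK20 gave -0.11 (SE 0.25) and -0.38 (SE 0.22). None of these differences passed an unadjusted p of 0.05 in either treatment.

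The FL478 and IR29 arrays were apart for 9 members in control, against 23.9% of all probe sets, and for 10 under salt, against 15.6%. Among the 17905 genes by their brightest probe set, the arrays were apart for 4651 in control and 3647 under salt. They were apart in the same direction in both treatments for 4 members, CML17 and CPK23 higher in FL478 and CPK1 and CPK6 lower. The same held for 4.91% of all probe sets, and among the 17905 genes for 718 higher and 698 lower in FL478. The sign was the same in both treatments for 35 of the 46 members (76.1%), against 66.4% of genes by their brightest probe set and 59.4% of all probe sets.

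**Figure D4:**
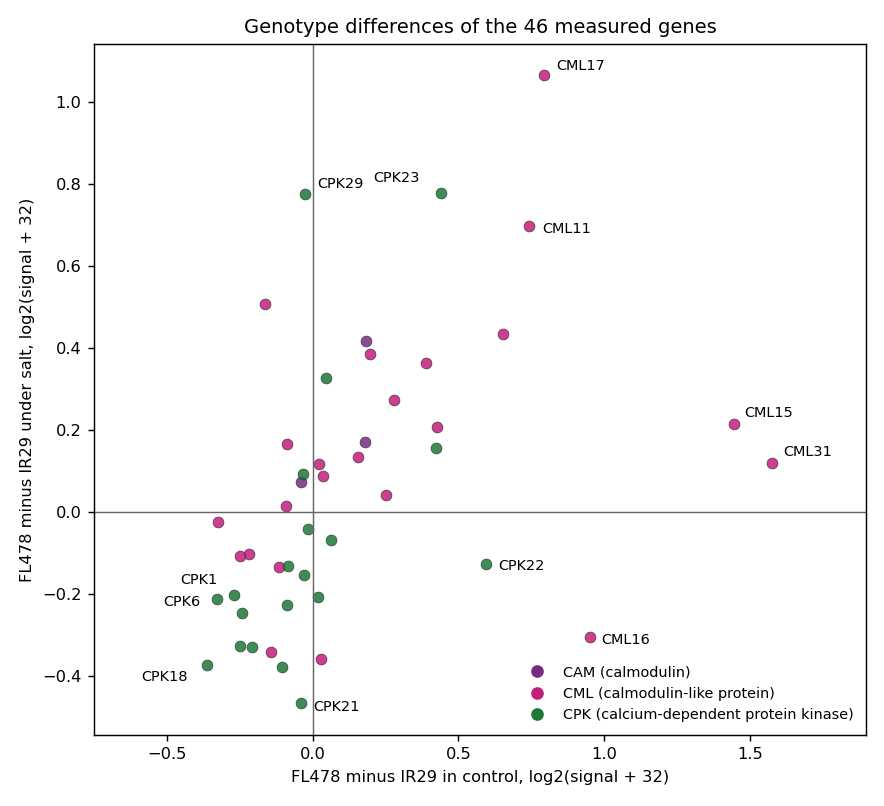
Difference between FL478 and IR29 in log2(signal + 32) in control (horizontal) and under salt (vertical) for the 46 members, coloured by class. CML17, CML11 and CPK23 lie to the upper right, higher in FL478 in both treatments, and most of the CPK genes lie below 0 on both axes.

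The members differed in how closely their replicates matched. Among members above the median level, the SD within groups on the log2 scale had a median of 0.22 over 17 CPK genes, 0.17 over 3 CAM genes and 0.36 over 22 CML genes, against 0.29 over all probe sets above that level. It was above 0.5 for 1 CPK gene, 5 CML genes and 17.5% of those probe sets. The lowest values were 0.075 for CPK7, 0.083 for CPK13 and 0.090 for CPK19. The highest were 0.96 for CML15, 0.85 for CPK21, 0.82 for CML31 and 0.81 for CML16.

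CML15, CML16 and CML31 were highest on the same array of every group: FL478 control replicate 1, FL478 salt replicate 1, IR29 control replicate 1 and IR29 salt replicate 3. CML15, for instance, read 2411, 454 and 836 in FL478 control and 699 and 157 in IR29 control. CML16 read 8275, 2389 and 6576 and then 4542 and 1488 on the same arrays. CML17 and CPK18 were highest on the same arrays, making 5 of the 46 members (10.9%). CML15, CML16 and CML31 defined the pattern, so this share cannot be set against the 3.29% of all probe sets above the median level. The pattern was noticed in these values and was not tested.

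**Figure D5:**
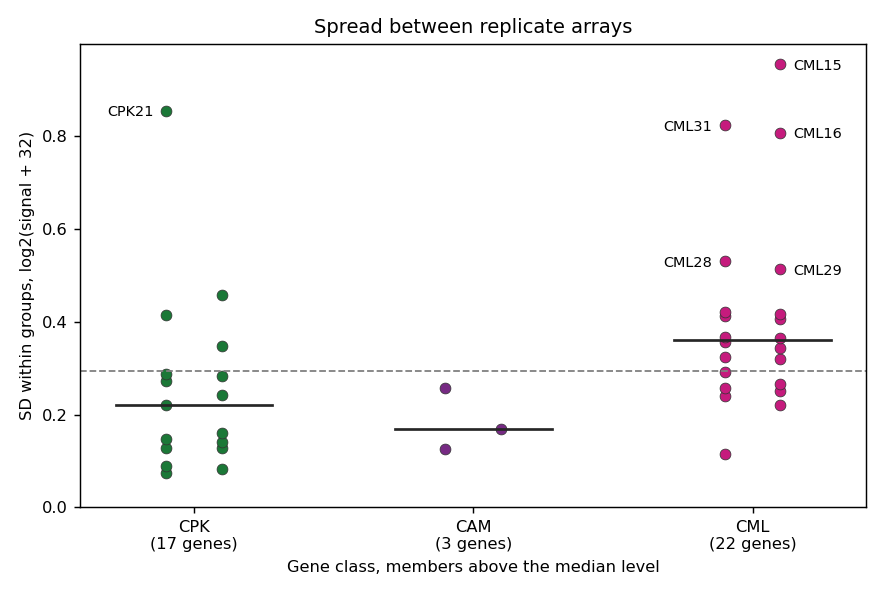
SD between replicate arrays within groups, in log2(signal + 32), for the members above the median level by class (points), with the median of each class (solid line) and of all probe sets above that level (dashed line, 0.29). CML15, CML31, CML16 and CPK21 have the largest spread.

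Other genes of calcium signalling were taken from lists of names. The CBL calcium sensors and the CIPK kinases that they activate, a route parallel to the CPK genes, had 31 measured genes. limma called 0 of them for salt in either genotype. At an unadjusted p under 0.05, 1 was higher and 5 lower in FL478, where 6.28% of genes by their brightest probe set were higher and 5.53% lower. In IR29 the counts were 0 and 2, against 3.70% and 2.94%. CIPK24, the kinase of the salt-overly-sensitive pathway, gave -0.013 in FL478 (SE 0.15) and 0.0054 in IR29 (SE 0.17). CIPK1 gave -0.69 (SE 0.28, adjusted p = 0.49) and -0.71 (SE 0.31).

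The calcium- and calmodulin-dependent kinase CCAMK, which decodes calcium spiking in root symbiosis, gave 0.61 in FL478 with an adjusted p of 0.41 (SE 0.21) and 0.79 in IR29 (SE 0.24). Of 9 calcium pumps and exchangers, 2 were higher and 1 lower in FL478 at an unadjusted p under 0.05, and 0 and 0 in IR29, beside the same shares of genes (6.28% and 5.53%, 3.70% and 2.94%). CAX2, a vacuolar calcium exchanger, gave 0.45 (SE 0.16) in FL478 and 0.15 (SE 0.18) in IR29. Of the 2 entry channels measured, GLR3.1 gave 0.23 (SE 0.16) in FL478 and 0.51 (SE 0.18) in IR29, and TPC1 gave 0.11 (SE 0.30) and 0.13 (SE 0.34). The NADPH oxidase gene rbohB gave 0.25 (SE 0.23) and 0.36 (SE 0.26). limma called 0 genes of these lists for salt in either genotype.

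For 7 members the annotation held more than 1 probe set of their own. For the named genes among them, CML10, CPK6 and CPK18, a dimmer probe set gave a salt difference of the other sign in at least 1 genotype. For CML10 it read 0.16 (SE 0.31) in FL478 and 0.44 (SE 0.35) in IR29, and lay under 32 units on 10 of the 11 arrays. For CPK13 the other probe set, at 32 units or above on every array, gave -0.21 in both genotypes (SE 0.16 and 0.18), against -0.013 and 0.11 for the brightest. Of the 46 probe sets used, 5 have a name ending in _s_at and 1 in _x_at, which Affymetrix gives to sets whose probes also match other transcripts. They stand for CML4, CML5, CML13, CPK5, CPK12 and CPK18, and the values of these genes may include signal from relatives.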

How the data were processed

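The authors hybridized RNA from rice root tips to Affymetrix Rice Genome Arrays and deposited linear signal intensity values, computed with GCOS (named without a version in the submitters' processing notes). Each array had a 2% trimmed mean near 500.1 units. The study ran its own tests on RMA values, which were not used here. The table lists 57381 probe sets, from which 123 controls of the manufacturer were removed. An offset of 32 was added, values were taken to log2, and 4 group means were fitted over 11 arrays in limma 3.58.1 (R 4.3.3), with 7 residual and 3 prior degrees of freedom. The adjusted p threshold of 0.10 is the false discovery rate the study set. The p-values measure the spread between these arrays. The tables and exact tests used Python 3.11.15, pandas 2.3.3, numpy 2.4.6 and scipy 1.17.1, and the figures matplotlib 3.10.9.

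The annotation gives 1 gene to 22436 probe sets, several to 95 and none to 34727. Gene names come from RefSeq's rice table (assembly ASM3414082v1); lists for calmodulin target proteins and annexins matched no gene. Members, lists and tests were chosen with earlier results of these data known. Named genes are the CAM genes, any called member, and in each of 6 contrasts and directions the 3 members above the median level with the smallest p. Further members are named for a known role or for groups that do not overlap.

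Marker lists held 5 genes of endodermis and stele, 3 of xylem, 14 of dividing cells and 3 of shoot. limma called 0 of them for salt. At an unadjusted p under 0.05, Lsi2 of the endodermis and stele list was lower and 1 dividing-cell gene higher in IR29. In FL478, 1 dividing-cell gene was higher. In simulated data of 57258 probe sets, 200 above the median level were changed in each salt contrast. The SDs of all probe sets were shuffled among them, and errors were drawn as independent and normal. The rates therefore do not describe the members in particular. Of log2 differences of 1, 26.8% were called in the FL478 salt contrast and 19.4% in IR29. Of differences of 2, 79% and 69% were called. The labels do not say that a replicate number marks a shared batch. Deviations of same-numbered arrays from their group means correlated at 0.33, 0.13 and 0.19 between FL478 control and FL478 salt, all over 0.1. The numbers were therefore treated as a possible pairing in that comparison and in no other that was made. The main fit leaves this pairing out, and the replicate number entered only as an alternative. Alternatives were an offset of 64, a floor of 32, quantile normalization, only those probe sets above the median, an intensity trend with robust variance, the replicate number as a block, the GAPDH ratio as a covariate, the compared groups alone, the median over a gene's probe sets, an adjusted p under 0.05 and leaving out each array.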

Additional observations from a re-analysis of the deposited data

How the results depend on the processing

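Counts of members moved under other settings. Members called for salt in FL478 were 1 with a floor of 32 (CPK7). For salt averaged over genotypes they were 1 (CPK7) with an offset of 64, a floor of 32, probe sets above the median level or an intensity trend with robust variance. For genotype under salt they were 1 (CPK23) with an offset of 64, probe sets above the median level, an intensity trend or the GAPDH covariate, and 0 to 1 without 1 array (1 without FL478 salt replicate 2 or IR29 salt replicate 2). For the genotype average, main count 2, they were 1 with a floor of 32, the replicate block or the GAPDH covariate, 0 at an adjusted p under 0.05, and 0 to 2 without 1 array.

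At an unadjusted p under 0.05, members for salt in IR29 were 1 with an offset of 64, a floor of 32, an intensity trend or the GAPDH covariate, and 0 to 1 without 1 array (1 without FL478 control replicate 1 or IR29 salt replicate 1 or 2). For the interaction they were 1 with a floor of 32, 1 with the replicate block, and 0 to 3 without 1 array (3 without IR29 control replicate 1). They ranged without 1 array from 1 to 5 for salt in FL478 (1 without FL478 salt replicate 3, 2 without FL478 control replicate 1 or 3 or FL478 salt replicate 1), and from 1 to 4 for the salt average (1 without FL478 salt replicate 3). For genotype in control the range was 1 to 6 (1 without FL478 control replicate 1 or IR29 control replicate 2, 5 without FL478 control replicate 2, 6 without IR29 control replicate 1). For genotype under salt they were 7 with a floor of 32 and 2 to 9 without 1 array (2 without FL478 salt replicate 3 or IR29 salt replicate 1 or 3, 9 without IR29 salt replicate 2). For the genotype average they were 8 with an offset of 64 and 3 to 7 without 1 array (3 without FL478 salt replicate 2 or IR29 salt replicate 1). The cause of these moves was not tested.

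Of 42 named differences, 38 kept their sign under each alternative run, and 25 moved by over 1.5 times without some 1 array and 10 under another setting. With the median over a gene's probe sets, an alternative added for these differences after the data were seen, the salt average of CML10 was 0.0058. The salt difference of CAM2 in IR29 was -0.10 without IR29 salt replicate 2 (-0.10 to 0.22 without 1 array), that of CAM3 in FL478 was -0.016 with quantile normalization, -0.0054 without FL478 control replicate 3 and -0.11 without FL478 salt replicate 3, and the salt average of CPK23 was -0.056 with the GAPDH covariate. In place of the GAPDH ratio, that of actin differed by 0.21 (exact permutation p = 0.05) and that of cyclophilin by -0.18 (exact permutation p = 0.41).

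In the FL478 salt comparison the replicate block left 0 members called and 4 at an unadjusted p under 0.05 (CML16, CML31, CPK7 and CPK29). CPK23, under 0.05 in the main fit, was not among them. In every comparison, this one included, the labels give the arrays only a shared number. Same-numbered arrays of FL478 control and IR29 salt, which were not compared, correlated at 0.15, 0.34 and 0.18, also all over 0.1. Over all groups, 9 of 15 same-numbered pairs of arrays had deviations that correlated above 0.1 (range -0.14 to 0.34, median 0.13). The median over 30 other pairs was -0.077. Deviations cancel out within each group, so these other pairs are not an independent baseline. The replicate block moved the call of CPK23 for the genotype average to an adjusted p of 0.14 and no other call of a named difference. Low signals limit what can be said of CPK2, CPK22, CPK29 and CML32.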
